A study of Ophiorrhiza pumila with 6 samples.

Results

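MYC2 is a basic helix-loop-helix (bHLH) transcription factor, a protein that binds DNA as a dimer, and it is best known from Arabidopsis as the factor that switches on genes once jasmonate has been perceived. In the resting state JAZ proteins hold MYC2 inactive with the help of the adaptor NINJA and the corepressor TOPLESS. The active hormone JA-Ile joins JAZ to its receptor COI1, JAZ is degraded, and MYC2 is then free to act through the Mediator subunit MED25. In *Catharanthus roseus*, which makes monoterpenoid indole alkaloids as *Ophiorrhiza pumila* does, the MYC2 homolog is known to control AP2/ERF factors of the ORCA type, and in Arabidopsis bHLH13 belongs to a group of related bHLH proteins that act against MYC2. *O. pumila* hairy roots (HR) produce camptothecin from strictosidine, so the contigs with MYC2 annotation are regulators of interest in lines where ERF genes were targeted.

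The contigs described here are the 6 of 59855 in the *de novo* assembly whose description is MYC2-like, MYC2b or bHLH13-like. They were taken by name from the deposited annotation. Expression was measured by RNA-seq in 6 HR libraries, 2 for each RNAi construct: ERF2i-2 and ERF2i-3 (construct against *OpERF2*), ERF1i-7 and ERF1i-19 (against *OpERF1*), and GUSi-9 and GUSi-10 (against the bacterial *GUS* reporter, the control). All 6 lines are roots induced by *Agrobacterium rhizogenes*, carry the same type of RNAi vector and were harvested at 3 weeks of age. By design every group, GUSi included, was thus given T-DNA and a hairpin construct. Transcripts of the hairpins were not measured here. Each line arose from its own transformation event and gave 1 library, and lines had been picked for low expression of the targeted gene by the study's qRT-PCR (not analysed here), so n = 2 lines per construct and the spread within a line was not measured. All results below are for the libraries labelled ERF2i, ERF1i and GUSi. In the deposited annotation table the clone numbers of the ERF2i lines are exchanged relative to the sample labels, which are followed here; this moves no library between groups.

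Libraries held 11517610 to 13199946 expected counts, the number of read pairs assigned to contigs, of which the 10 most read contigs took 3.53% to 5.52%. *OpERF1* (contig c15284_g1_i1) had 698.37 and 583.9 FPKM in ERF2i and 3.46 and 18.94 FPKM in ERF1i, against 205.74 and 133.93 FPKM in GUSi (FPKM: fragments scaled to contig length and library size). *OpERF2* (c17706_g2_i1) had 3.29 and 14.75 FPKM in ERF2i, against 15.21 and 8.33 FPKM in GUSi, so the ERF2i and GUSi libraries overlapped and the RNA-seq counts of this contig did not separate them (log2 fold change −0.15, SE 0.73, adjusted p = 0.903 by edgeR's quasi-likelihood test). The T-DNA genes *rolB* and *rolC*, which mark HR, were found at 24.34 to 58.58 FPKM and at 226.13 to 948.44 FPKM across the 6 libraries, whereas *rolB* of the right T-DNA was at 0.09 FPKM in both ERF1i libraries and at 25.24 to 64.3 FPKM in the other libraries. The summed level of 3 Casparian strip membrane proteins, markers of root endodermis, was 119 and 91.8 FPKM in ERF2i, 153 and 54.2 FPKM in ERF1i, and 83.6 and 166 FPKM in GUSi. They come from a list of 115 root marker contigs, 104 of them tested. At an edgeR adjusted p under 0.05, 16 rose and 12 fell in ERF2i against GUSi, beside 13.2% and 9.88% of all tested contigs. In ERF1i against GUSi 5 rose and 4 fell, beside 2.65% and 1.40%. The lowest p in ERF2i was that of CASP-like c25591_g1_i2, which rose by 2.89 on the log2 scale (SE 0.24, edgeR adjusted p = 0.00075). Of 101 contigs with green tissue annotation, 41 were at 0 in all 6 libraries, and the sum over the list was 184 and 246 FPKM in ERF2i, 367 and 463 FPKM in ERF1i, and 230 and 206 FPKM in GUSi. In bulk RNA, fewer cells of a type and less RNA per cell cannot be told apart.

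The 6 contigs fall into 3 types by annotation. Contigs c42999_g1_i1 (450 bp) and c47845_g1_i1 (580 bp) are described as MYC2-like and share the same best hit, a MYC2-like protein of *Vitis vinifera*, to which they align over 120 and 168 residues with 85.0% and 66.1% similar residues. Contigs c33349_g2_i1 (1310 bp) and c33349_g3_i1 (1052 bp) are described as MYC2b, and the best hit of both is *C. roseus* MYC2, over 450 and 214 residues with 71.1% and 83.2% similar residues. Contigs c27474_g1_i1 (2685 bp) and c27474_g1_i2 (2316 bp) belong to the same assembly gene and are described as bHLH13-like, although their best hit, over 595 residues at 76.3% similarity, is named a Myc2 bHLH protein of *V. vinifera*. For the last type the description and the hit therefore point to different members of the family. The GO terms of all 6 contigs include protein dimerization or protein binding, and c42999_g1_i1 also carries a reductase term that is foreign to a bHLH factor. Whether the paired contigs of 1 type are separate genes or pieces of 1 transcript cannot be told apart from lengths and hits alone. No genome position is given, since the reads were assigned to assembled contigs.

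The 3 types stood at very different levels, and the MYC2b contigs were the highest in every library. On the FPKM scale c33349_g3_i1 had 186.69 and 172.57 FPKM in ERF2i, 251.25 and 241.72 FPKM in ERF1i, and 287.52 and 314.99 FPKM in GUSi. Its partner c33349_g2_i1 had 161.37 and 140.67 FPKM in ERF2i, 218.59 and 200.09 FPKM in ERF1i, and 256.64 and 282.61 FPKM in GUSi. Both contigs thus had the same order of constructs, ERF2i lowest and GUSi highest, with no overlap between any of the groups. Lack of overlap in CPM was common among all tested contigs. It held for 68.2% between ERF2i and GUSi, 50.6% between ERF1i and GUSi, and 64.1% between ERF2i and ERF1i. The share with all groups apart at once was not counted. In GUSi their means of 301 and 270 FPKM stood above 99.1% and 99.0% of the tested contigs, and in ERF2i still above 98.1% and 97.7%.

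The bHLH13-like contigs came next. In c27474_g1_i1 the level was 9.58 and 8.23 FPKM in ERF2i, 19.34 and 18.94 FPKM in ERF1i, and 13.92 and 15.72 FPKM in GUSi. In c27474_g1_i2 it was 8.44 and 8.29 FPKM in ERF2i, 20.46 and 17.98 FPKM in ERF1i, and 12.82 and 16.58 FPKM in GUSi. Here ERF2i was again lowest but ERF1i, not GUSi, was highest, and again no groups overlapped, which was common among all tested contigs. The levels of the pair could not be ranked, because their libraries overlapped within each construct. They stood near the middle of the expression range, above 57.5% and 55.6% of tested contigs in ERF2i, and above 68.6% and 68.4% in GUSi.

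The MYC2-like contigs were the lowest. Contig c47845_g1_i1 had 1.07 and 1.05 FPKM in ERF2i, 6.46 and 9.86 FPKM in ERF1i, and 4.93 and 4.66 FPKM in GUSi. Contig c42999_g1_i1 had 0.63 and 0.62 FPKM in ERF2i, 4.74 and 10.66 FPKM in ERF1i, and 4.17 and 4.11 FPKM in GUSi. As in the bHLH13-like contigs, ERF2i was lowest and ERF1i highest, with ERF1i-19 above ERF1i-7 in both. Few reads stand behind these values. The expected counts of c42999_g1_i1 were 2 and 2 in ERF2i, 17 and 36 in ERF1i, and 15 and 15 in GUSi, and those of c47845_g1_i1 were 5 and 5 in ERF2i, 34 and 49 in ERF1i, and 26 and 25 in GUSi. By comparison, the 4 other contigs had 208 to 4239 counts in each library. The c47845_g1_i1 libraries lay above those of c42999_g1_i1 within ERF2i and within GUSi, but the pair overlapped within ERF1i.

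**Figure D1:**
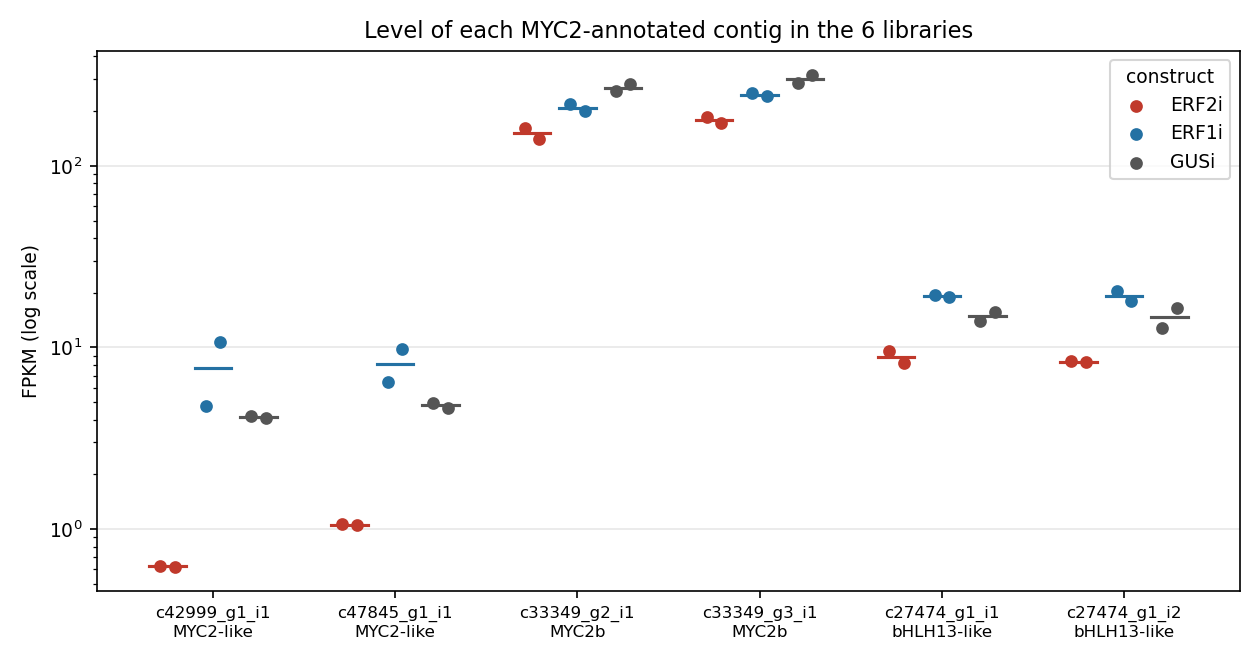
FPKM on a log scale for each of the 6 MYC2-annotated contigs; points are the 2 libraries of each construct and lines their means. MYC2b contigs lie between 140.67 and 314.99 FPKM and MYC2-like contigs between 0.62 and 10.66 FPKM, and ERF2i is the lowest construct for all 6 contigs.

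In the libraries labelled ERF2i all 6 contigs were lower than in GUSi. All 6 passed edgeR's quasi-likelihood test at an adjusted p under 0.05 (Benjamini-Hochberg over 33315 tested contigs), set against 9.88% of all tested contigs that were called lower in this comparison and 13.2% called higher. The median log2 fold change of the 6 contigs was −0.6, and the median of all tested contigs was −0.00969. The groups did not overlap in CPM, counts scaled to effective library size, for any of the 6 contigs, which was so in either direction for 68.2% of all tested contigs. All 6 contigs passed the filter on low counts (a minimum count of 10), but the MYC2-like contigs, with 2 to 5 counts in each ERF2i library, passed it only through the groups where they are high, so their entry into the test already favoured a difference.

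The MYC2-like contig c42999_g1_i1 averaged 0.625 ± 0.00707 FPKM in ERF2i and 4.14 ± 0.0424 FPKM in GUSi (SD, n = 2 each), a log2 fold change of −2.45 (SE 0.68, 95% interval −4.04 to −0.85, adjusted p = 0.0411 by edgeR's quasi-likelihood test). With 4 counts in the ERF2i libraries together, against 30 in the GUSi libraries, its ratio was 6.67-fold lower in ERF2i with an exact binomial 95% interval of 2.35 to 26.1, which covers counting error only. For c47845_g1_i1 the means were 1.06 ± 0.0141 FPKM in ERF2i and 4.79 ± 0.191 FPKM in GUSi (SD, n = 2 each), and its log2 fold change was −1.93 (SE 0.41, interval −2.89 to −0.97, edgeR adjusted p = 0.0172). Its 10 counts in ERF2i, against 51 in GUSi, made it 4.54-fold lower in ERF2i (exact interval 2.28 to 10.0). The very small SDs of these contigs rest on counts that were equal in both ERF2i libraries and do not measure how finely such low levels can be known.

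The abundant MYC2b contigs differed by less, but with much narrower intervals. Contig c33349_g2_i1 averaged 151 ± 14.6 FPKM in ERF2i and 270 ± 18.4 FPKM in GUSi (SD, n = 2 each), with a log2 fold change of −0.61 (SE 0.12, interval −0.9 to −0.32, edgeR adjusted p = 0.0148), and c33349_g3_i1 averaged 180 ± 9.98 FPKM in ERF2i and 301 ± 19.4 FPKM in GUSi, with −0.52 (SE 0.11, interval −0.78 to −0.26, edgeR adjusted p = 0.0171). These folds, 1.53 and 1.43 times lower in ERF2i, are smaller than the ratios of the FPKM means because edgeR's TMM scaling set the effective library size of ERF2i lower (factors 0.918 and 0.909) and that of GUSi higher (1.08 and 1.07). Without this scaling the log2 fold changes were −0.84 and −0.75, while the median of all contigs was −0.24. A further contig of the same assembly component, c33349_g7_i1 (291 bp, no protein hit), was singled out after its values had been seen. It had 91.29 and 81.29 FPKM in ERF2i, 166.64 and 143.98 FPKM in ERF1i, and 190.67 and 223.15 FPKM in GUSi, the order of constructs seen in both MYC2b contigs, and fell by 1.05 on the log2 scale in ERF2i against GUSi (SE 0.15, edgeR adjusted p = 0.00398).

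The bHLH13-like contigs were lower by a similar amount. Contig c27474_g1_i1 averaged 8.91 ± 0.955 FPKM in ERF2i and 14.8 ± 1.27 FPKM in GUSi (SD, n = 2 each), with a log2 fold change of −0.51 (SE 0.12, interval −0.8 to −0.22, edgeR adjusted p = 0.0267). For c27474_g1_i2 the averages were 8.36 ± 0.106 FPKM in ERF2i and 14.7 ± 2.66 FPKM in GUSi, with −0.59 (SE 0.15, interval −0.95 to −0.22, edgeR adjusted p = 0.0357). The intervals of the 4 MYC2b and bHLH13-like contigs overlap one another widely.

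The calls in ERF2i against GUSi depended on every ERF2i and GUSi library and in part on the test. With any ERF2i or GUSi library left out, a compared group kept 1 library. Calls were then lost among the 6 contigs, and they were lost among all tested contigs as well. Leaving out an ERF1i library lost no call among the 6. At an unadjusted p under 0.05 all 6 were lower in the fit of all libraries, as were 17.9% of all tested contigs. DESeq2 called 4 of 6, with adjusted p of 0.0607 for c42999_g1_i1 and 0.0501 for c27474_g1_i1. Of all 33315 contigs it called 2312 lower. Over all alternatives the adjusted p ran from 0.01 to 0.2 for c42999_g1_i1 and from 0.00608 to 0.144 for c27474_g1_i1. The sign did not change for any of the 6 contigs in any of the 16 alternatives tried. Since the groups did not overlap in CPM, leaving out a library left little room for a change of sign, and the other alternatives reused the same counts. The log2 fold changes over the left-out libraries stayed between −2.46 and −2.44 for c42999_g1_i1, between −0.71 and −0.53 for c33349_g2_i1 and between −0.77 and −0.38 for c27474_g1_i2. The narrow range of c42999_g1_i1 reflects counts that were equal within each group (2 and 2 in ERF2i, 15 and 15 in GUSi). It does not measure how well this change is known.

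**Figure D2:**
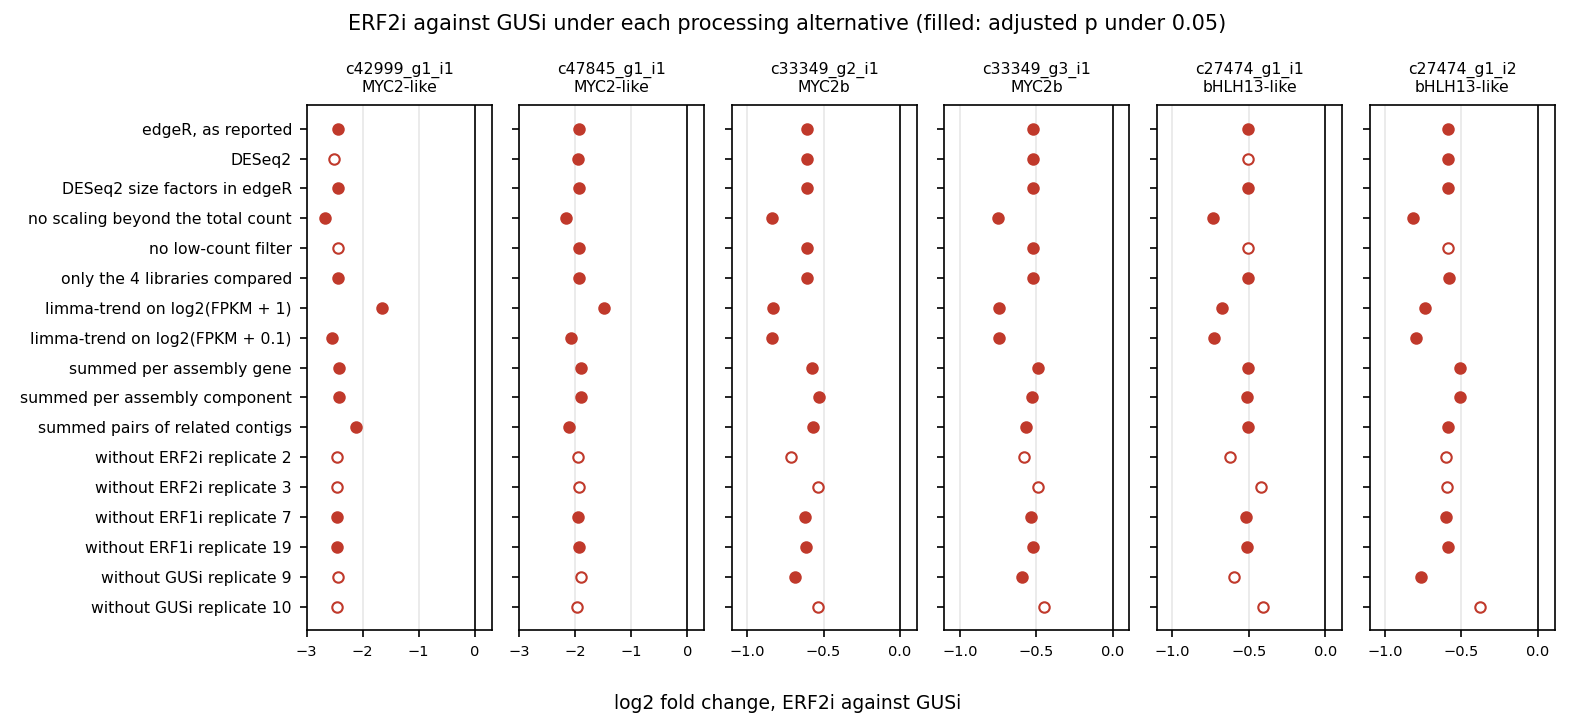
Log2 fold change of each contig in ERF2i against GUSi under the reported edgeR fit and 16 alternatives, with filled points at an adjusted p under 0.05; the x axis is wider for the MYC2-like contigs. All points lie below 0, and none is filled without ERF2i-2, ERF2i-3 or GUSi-10.

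In the libraries labelled ERF1i no contig passed the test against GUSi, where edgeR's quasi-likelihood test called 1.40% of all tested contigs lower and 2.65% higher. At an unadjusted p under 0.05, 3 of the 6 contigs were higher and 1 was lower in ERF1i. Beside them, 11.5% of all tested contigs were higher and 9.14% lower at that threshold. Neither DESeq2 nor limma called any of the 6 at an adjusted p under 0.05. DESeq2 called 1249 of 33315 contigs higher and 590 lower. Limma called 21 of 43088 contigs higher and 16 lower on log2(FPKM + 1), and 2 and 7 on log2(FPKM + 0.1). Its lack of calls thus says little about the 6. The signs of the MYC2-like and bHLH13-like contigs were positive. MYC2-like c42999_g1_i1 averaged 7.7 ± 4.19 FPKM in ERF1i and 4.14 ± 0.0424 FPKM in GUSi (log2 fold change 0.94, SE 0.43, edgeR adjusted p = 0.277), and c47845_g1_i1 averaged 8.16 ± 2.4 FPKM in ERF1i and 4.79 ± 0.191 FPKM in GUSi (0.83, SE 0.3, edgeR adjusted p = 0.177; SD, n = 2 each). The bHLH13-like contigs had log2 fold changes of 0.44 (SE 0.12, c27474_g1_i1, edgeR adjusted p = 0.0947) and 0.45 (SE 0.15, c27474_g1_i2, edgeR adjusted p = 0.147). The MYC2b contigs had negative values, −0.3 (SE 0.12, c33349_g2_i1, edgeR adjusted p = 0.232) and −0.22 (SE 0.11, c33349_g3_i1, edgeR adjusted p = 0.309). The CPM of ERF1i and GUSi did not overlap for any of the 6 contigs, which was so for 50.6% of all tested contigs. The log2 fold change of c42999_g1_i1 was 0.27 without ERF1i-19 and 1.4 without ERF1i-7.

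**Figure D3:**
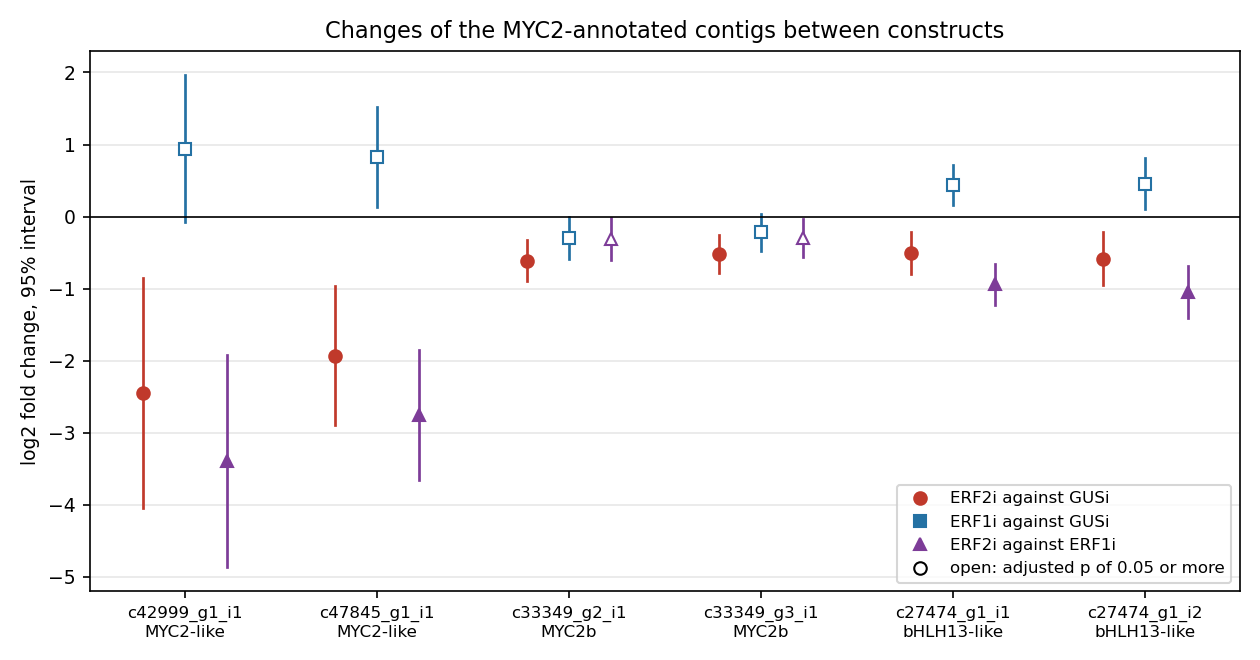
Log2 fold changes with 95% intervals from edgeR for the 6 contigs in the 3 comparisons; filled symbols have an adjusted p under 0.05. ERF2i against GUSi is negative and filled for all 6 contigs, ERF1i against GUSi is open for all 6, and ERF2i against ERF1i is filled for the MYC2-like and bHLH13-like contigs but open for the MYC2b contigs.

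Set directly against ERF1i, the libraries labelled ERF2i had lower levels of the MYC2-like and bHLH13-like contigs. Here 4 of 6 contigs passed edgeR's test, all lower in ERF2i, against 9.01% of all tested contigs called lower and 10.6% called higher. The MYC2-like contigs among them, with 2 to 5 counts in each ERF2i library, passed the low-count filter only through groups where they are high. Their entry into the test thus already favoured a difference. The bHLH13-like contigs belong to the same assembly gene and share reads, so they are not separate evidence. Contig c42999_g1_i1 differed by a log2 fold change of −3.39 (SE 0.62, edgeR adjusted p = 0.0131) and c47845_g1_i1 by −2.76 (SE 0.38, edgeR adjusted p = 0.00506). In counts, the ERF2i libraries held 4 and the ERF1i libraries 53 for the first contig, which is 12.2-fold lower in ERF2i (exact interval 4.5 to 46.5), and 10 against 83 for the second (7.66-fold lower, interval 3.96 to 16.6). For the bHLH13-like contigs the differences were −0.94 (SE 0.12, c27474_g1_i1, edgeR adjusted p = 0.00391) and −1.04 (SE 0.15, c27474_g1_i2, edgeR adjusted p = 0.00621). The MYC2b contigs did not pass, at −0.31 (SE 0.12, c33349_g2_i1, edgeR adjusted p = 0.118) and −0.3 (SE 0.11, c33349_g3_i1, edgeR adjusted p = 0.1). Without scaling beyond the total count both did, with −0.47 and −0.46 and all 6 contigs called. In that fit 5313 of all 33315 contigs were called lower and the median of all contigs was −0.17. The CPM of ERF2i and ERF1i did not overlap for any of the 6 contigs, which was so for 64.1% of all tested contigs. Without ERF2i-2 only c27474_g1_i1 passed (edgeR adjusted p = 0.0372), and likewise without ERF2i-3 (edgeR adjusted p = 0.0423, the highest over its alternatives, of which the lowest was 2.61e-05). The 3 comparisons share libraries, so their values for a contig are not independent of one another. The green tissue list, which was higher in ERF1i than in GUSi at 8 of 38 tested contigs (edgeR, median log2 fold change 1.11) and lower in ERF2i than in ERF1i at 11 of 38 (median −0.9), had the sign of the MYC2-like and bHLH13-like contigs in these 2 comparisons. In ERF2i against GUSi, where those contigs were lower, 4 of the 38 green tissue contigs were higher and 1 was lower (median 0.23). Beside these counts stand all tested contigs, of which 2.65% were higher in ERF1i than in GUSi and 9.01% lower in ERF2i than in ERF1i. In ERF2i against GUSi the shares were 13.2% higher and 9.88% lower. The part of the green tissue list in the differences that involve ERF1i was not tested.

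By its MYC2b share the MYC2-annotated pool was made up much alike in ERF2i and GUSi, and ERF1i stood apart. The 6 contigs together reached 368 and 331 FPKM in ERF2i, 521 and 499 FPKM in ERF1i, and 580 and 639 FPKM in GUSi. The MYC2b contigs were 94.6% and 94.5% of that sum in ERF2i, 90.2% and 88.5% in ERF1i, and 93.8% and 93.6% in GUSi. The ratio of c33349_g2_i1 to c27474_g1_i1 was 16.8 and 17.1 in ERF2i, 11.3 and 10.6 in ERF1i, and 18.4 and 18.0 in GUSi, so the ERF1i libraries were set apart from all the others by a lower ratio of MYC2b to bHLH13-like transcript. The ratio of c33349_g2_i1 to the MYC2-like c47845_g1_i1 spread more widely, at 151 and 134 in ERF2i, 33.8 and 20.3 in ERF1i, and 52.1 and 60.6 in GUSi. The ERF2i values of this ratio rest on 5 counts of c47845_g1_i1 in each library, so they are known only roughly. These ratios need no scaling between libraries, and their differences were described and not tested. The summed FPKM, by contrast, are without TMM scaling, and a transcript split over several contigs would be counted more than once in them.

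Within a type the contigs kept almost the same profile. The ratio of c33349_g3_i1 to c33349_g2_i1 in FPKM was 1.16 and 1.23 in ERF2i, 1.15 and 1.21 in ERF1i, and 1.12 and 1.11 in GUSi. Of the counts of assembly gene c27474_g1, contig i1 took 57.1% and 53.8% in ERF2i, 52.6% and 55.3% in ERF1i, and 56.0% and 52.6% in GUSi, with Wilson 95% intervals that span 49.2% to 61.4% across libraries and overlap between constructs. RSEM divides reads that match both contigs between them, so this split is an estimate. Measured as the root mean square difference of centred log2 CPM over the 6 libraries (0 for the same profile), the distance was 0.05 between the MYC2b contigs, 0.1 between the bHLH13-like contigs and 0.17 between the MYC2-like contigs. Between types it ran from 0.31, for c33349_g3_i1 and c27474_g1_i1, to 0.99, for c42999_g1_i1 and either MYC2b contig. The libraries of 1 construct and the reads shared between related contigs stand behind these distances, which are descriptions over 6 points.

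The same measure was used to find the contigs closest to each member among 17061 described contigs of at least 5 CPM in other assembly components. Closest to c42999_g1_i1 were a thiazole biosynthetic enzyme (c32905_g1_i1, 0.154), a peroxidase 52-like contig (c20433_g1_i1, 0.206) and a class V chitinase (c18798_g1_i1, 0.233), and closest to c47845_g1_i1 were a senescence-related gene 1 contig (c13207_g1_i1, 0.187), a lipid-transfer protein (c29460_g1_i1, 0.196) and a reticuline oxidase-like contig (c23647_g1_i1, 0.205). The MYC2b contigs had much nearer neighbours: c33349_g2_i1 lay at 0.019 from a hop-interacting protein contig (c21919_g1_i1) and at 0.05 from an F-box SKIP16-like contig (c5606_g1_i1), and c33349_g3_i1 lay at 0.025 from a CCR4-associated factor (c13324_g1_i1) and at 0.03 from a signal recognition particle subunit (c33507_g2_i4). Near c27474_g1_i1 stood a germin-like protein (c24182_g3_i1, 0.068) and a xylosyltransferase IRX9H-like contig (c32520_g2_i1, 0.07), and near c27474_g1_i2 an enzyme of very-long-chain fatty acid synthesis (c30322_g1_i1, 0.085) and a leucine-rich repeat kinase (c30329_g1_i1, 0.09). Profiles with small differences between groups have many near neighbours over 6 libraries. The count of 2 added before taking logs compresses the profiles of the low-count MYC2-like contigs. For c42999_g1_i1 it put ERF2i 1.82 below the GUSi mean, against the fitted log2 fold change of −2.45. The neighbours of these contigs match the compressed profiles.

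Other bHLH contigs did not all follow the MYC2-annotated ones. Of 127 tested contigs with bHLH annotation outside the 6, 9 rose and 30 fell in ERF2i against GUSi (edgeR, median log2 fold change −0.27), and 4 rose and 12 fell in ERF1i against GUSi (median −0.12). Among all tested contigs 13.2% rose and 9.88% fell in the first comparison, and 2.65% rose and 1.40% fell in the second. The contig c31481_g1_i1, whose best hit is *C. roseus* MYC4, averaged 14.5 ± 1.0 FPKM in ERF2i and 19.4 ± 1.68 FPKM in GUSi (SD, n = 2 each) and did not pass the test (−0.19, SE 0.15, edgeR adjusted p = 0.397). The bHLH3-like contigs c27072_g1_i1 and c27072_g1_i2, named like an Arabidopsis relative of bHLH13, had log2 fold changes of 0.09 (SE 0.14) and 0.03 (SE 0.15). The contigs annotated MYC5 had the opposite sign. Contig c10432_g1_i1 averaged 4.08 ± 0.17 FPKM in ERF2i, 4.7 ± 0.608 FPKM in ERF1i and 2.33 ± 0.113 FPKM in GUSi (SD, n = 2 each), and rose by 1.03 in ERF2i (SE 0.18, edgeR adjusted p = 0.00798) and by 1.08 in ERF1i (SE 0.17, edgeR adjusted p = 0.0272) on the log2 scale. The MYC4, bHLH3-like and MYC5 contigs were chosen by annotation, outside the rule for naming contigs. By that rule, the bHLH contigs with the lowest p were bHLH25-like c26496_g1_i1 (−1.31 in ERF2i against GUSi, SE 0.11, edgeR adjusted p = 0.00084), the EMB1444-like c30111_g2_i1 (1.31, SE 0.12, edgeR adjusted p = 0.000917), bHLH47-like c27605_g1_i1 (1.46, SE 0.17, edgeR adjusted p = 0.00221) and, in ERF1i against GUSi, bHLH148-like c39533_g1_i1 (−1.84, SE 0.21, edgeR adjusted p = 0.0125).

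The lists that include the proteins that hold MYC2 in check showed no common fall. Of 12 tested JAZ/TIFY contigs, 1 rose and 0 fell in ERF2i against GUSi (edgeR, median log2 fold change 0.21, with 2 of 12 values negative), and 0 passed in ERF1i against GUSi. The 12 contigs come from only 5 assembly genes, and most of them are variants of c32789_g1. Both negative values are those of c29830_g2. The named contigs of these genes, c32789_g1_i3 and c29830_g2_i2, are described as TIFY and not as JAZ proteins. The median and the count of negative values thus rest largely on these genes and say little about JAZ repressors of MYC2. The contig that rose was the abundant JAZ1 c25603_g2_i1, a repressor of MYC2 and in Arabidopsis also one of its targets. It had 1006.54 and 925.18 FPKM in ERF2i, 1092.68 and 775.74 FPKM in ERF1i, and 522.93 and 584.34 FPKM in GUSi. Both ERF constructs were thus above GUSi, with a log2 fold change of 1.03 in ERF2i (SE 0.19, edgeR adjusted p = 0.0101) and 0.82 in ERF1i (SE 0.19, edgeR adjusted p = 0.0608). Of 33 tested contigs for the receptor, adaptor, corepressor and Mediator subunit, 4 rose and 2 fell in ERF2i against GUSi (median 0.25) and 0 passed in ERF1i. These rises, like that of 1 of 12 JAZ/TIFY contigs, did not exceed the 13.2% of all tested contigs called higher. NINJA-family contigs c17476_g1_i1 and c17476_g2_i1 rose by 1.11 (SE 0.14, edgeR adjusted p = 0.00302) and 1.25 (SE 0.24, edgeR adjusted p = 0.0117), MED25-like c25242_g1_i1 rose by 0.51 (SE 0.1, edgeR adjusted p = 0.0141), and the receptor contig COI1 c20563_g1_i1, picked by annotation, had −0.2 (SE 0.12, edgeR adjusted p = 0.243). The hits of these NINJA-family contigs are to AFP3, a protein better known from abscisic acid signalling. Another NINJA-family contig, the mc410-like c3801_g1_i1, did not pass in ERF2i against GUSi (0.12, SE 0.12, edgeR adjusted p = 0.472). It was more abundant, at 43.3 ± 2.32 FPKM in ERF2i and 46.6 ± 2.92 FPKM in GUSi (SD, n = 2 each).

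Jasmonate synthesis moved in both directions. Of 16 tested contigs, 5 rose and 4 fell in ERF2i against GUSi (edgeR, median 0.08), and 0 passed in ERF1i against GUSi (median 0.2). The shares over all tested contigs were 13.2% higher and 9.88% lower in ERF2i, and 2.65% higher and 1.40% lower in ERF1i. An acyl-CoA oxidase for the last, peroxisomal steps (c41885_g1_i1) averaged 413 ± 20.8 FPKM in ERF2i and 130 ± 12.9 FPKM in GUSi (1.9, SE 0.15, edgeR adjusted p = 0.000673), whereas allene oxide synthase, the first committed enzyme (c25608_g1_i1), averaged 10.2 ± 0.552 FPKM in ERF2i and 26.1 ± 0.12 FPKM in GUSi (−1.13, SE 0.1, edgeR adjusted p = 0.000914; SD, n = 2 each). Lipoxygenase c27720_g2_i1 fell by 0.67 (SE 0.13, edgeR adjusted p = 0.014). Among 11 contigs for the formation and turnover of JA-Ile, 2 rose and 2 fell in ERF2i and 2 rose in ERF1i. The falls were CYP94A1 contigs c24807_g1_i1 (−2.07, SE 0.31, edgeR adjusted p = 0.00519) and c24114_g1_i1 (−1.72, SE 0.43, edgeR adjusted p = 0.0294), members of a P450 family that includes JA-Ile hydroxylases and fatty acid hydroxylases. Another CYP94A1-like contig, c42193_g1_i1, had 2.28 and 2.42 FPKM in ERF2i, 21.76 and 30.3 FPKM in ERF1i, and 0.84 and 0.99 FPKM in GUSi, a log2 fold change of 4.86 in ERF1i against GUSi (SE 0.3, edgeR adjusted p = 0.00522).

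The pathway toward strictosidine, in which MYC2 homologs of other alkaloid plants act, had more contigs lower than higher in ERF2i. Of 28 tested secologanin-strictosidine contigs, 0 rose and 8 fell in ERF2i against GUSi (edgeR, median −0.46, 25 of 28 negative), and 2 rose in ERF1i against GUSi. For this list and the MEP list, the shares over all tested contigs were 13.2% higher and 9.88% lower in ERF2i against GUSi. In ERF1i against GUSi they were 2.65% and 1.40%. The falls included the glucosyltransferase contigs 7-DLGT c22992_g2_i1 (−1.36, SE 0.18, edgeR adjusted p = 0.00328) and c22992_g3_i1 (−1.54, SE 0.23, edgeR adjusted p = 0.00532) and a secologanin synthase-like contig (SLS c27549_g2_i1, −1.59, SE 0.34, edgeR adjusted p = 0.0173). Loganic acid methyltransferase LAMT c5842_g1_i1 averaged 93.4 ± 12.2 FPKM in ERF2i, 253 ± 1.68 FPKM in ERF1i and 160 ± 16.8 FPKM in GUSi (SD, n = 2 each), the ERF2i, GUSi, ERF1i order of the MYC2-like and bHLH13-like contigs, and passed edgeR's test in both comparisons with GUSi (ERF2i adjusted p = 0.0286, ERF1i adjusted p = 0.0379). Of 12 MEP pathway contigs, which supply the terpenoid precursors, 0 rose and 2 fell in ERF2i (median −0.12), DXR c33486_g7_i1 by 1.04 (SE 0.14, edgeR adjusted p = 0.00357) and CMK c28782_g1_i1 by 0.38 (SE 0.11, edgeR adjusted p = 0.0472), and 0 passed in ERF1i. The study drew up its MEP, secologanin-strictosidine and jasmonate synthesis lists for its own analysis of the same libraries, so these lists are not independent evidence of a direction.

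**Figure D4:**
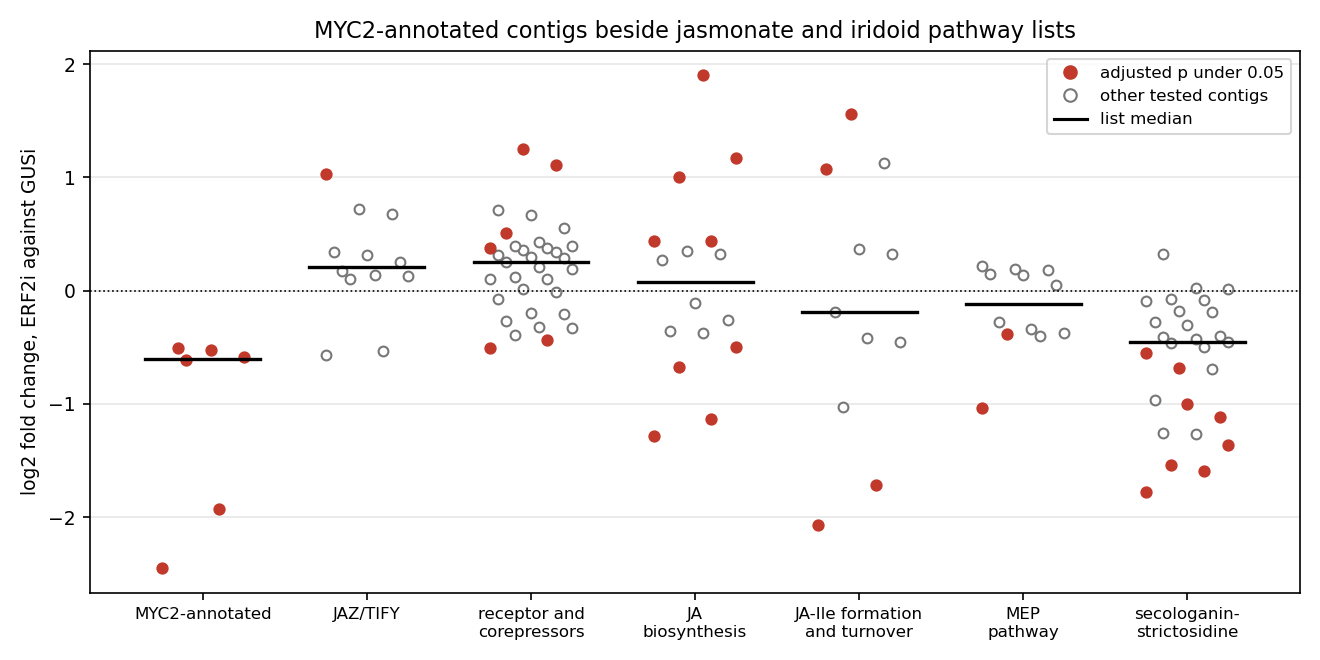
Log2 fold change in ERF2i against GUSi for the tested contigs of 7 lists; filled points have an edgeR adjusted p under 0.05 and bars mark list medians. The 6 MYC2-annotated contigs are all negative and filled, JAZ/TIFY contigs are mostly above 0 with 1 filled, jasmonate synthesis has filled points on both sides, and 25 of 28 secologanin-strictosidine contigs are below 0.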

How the data were processed

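Strand-specific libraries of 6 hairy root lines had been sequenced as paired ends. With Bowtie2 2.0 the authors placed cleaned reads on their *de novo* assembly, and RSEM (version and strand setting not given in the sources used here) estimated levels. For each contig the deposited library tables give expected counts, FPKM, TPM (not used) and the percent of a gene's transcripts in each contig (IsoPct). FPKM in the deposited annotation table equals that of the library tables for 59855 of 59855 contigs; its similarity percent was computed by the authors' annotation tool.

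Expected counts (1 value was not whole) were rounded, filtered by edgeR's filterByExpr (minimum count 10, total 15) to 33315 contigs, TMM scaled and tested with edgeR 4.0.16 (quasi-likelihood, common dispersion 0.0216, 3 residual degrees of freedom) in R 4.3.3, with all 6 libraries in 3 groups and Benjamini-Hochberg adjustment. An SE is the log2 fold change divided by the square root of the test's F. CPM is TMM scaled; count ratios use library totals. Profiles used a prior count of 2. Line pairs differed by 4.63 to 15.5 times sampling noise (chi-square per degree of freedom), so all 6 were kept as separate libraries. DESeq2 1.42.0 and limma 3.58.1 were alternatives, beside other scalings, filters, summed counts and left-out libraries. Steps were tested on simulated data. Columns lacking a sample numbered 0.

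The 6 contigs and the lists were chosen with earlier results of these data known. Named contigs are the 6, *OpERF1* and *OpERF2*, the 3 per list with the lowest p in ERF2i against GUSi and the 2 in ERF1i against GUSi, and the 3 nearest profiles per contig; those given as examples come from these unless stated. Contigs of 1 assembly gene share reads. Scripts used Python 3.11.15.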

Additional observations from a re-analysis of the deposited data

How the results depend on the processing

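No paired analysis was possible because the line numbers of the 3 constructs are not shared. No member of the 6 changed sign in any of 16 alternatives; of 160 values of contigs called in the reported fit 128 stayed called (70 of 96 in ERF2i against GUSi, 58 of 64 in ERF2i against ERF1i), and of 128 values of contigs not called there 3 became called. In ERF2i against GUSi, 6 contigs were called lower, 3 with no low-count filter (adjusted p of 0.0664 for c42999_g1_i1, 0.0521 for c27474_g1_i1 and 0.0673 for c27474_g1_i2, whose adjusted p ran from 0.00882 to 0.178 over all alternatives) and 0 to 6 with a library left out; in ERF2i against ERF1i, 4, and 1 to 4 with a library left out. Where a group keeps 1 library, it is assumed to vary like the other groups. The groups did not overlap in CPM for any of the 6 contigs, so leaving out a library left little room for a change of sign. Summing the MYC2-like pair and the MYC2b pair, chosen after seeing the data, kept both called in ERF2i against GUSi. Over all contigs, ERF2i against GUSi gave 4393 higher and 3293 lower (57.2% of calls higher), but 2932 and 7331 with no scaling (28.6%), 2463 and 5066 with limma on log2(FPKM + 1), 2313 higher with log2(FPKM + 0.1), 2175 lower with no filter, 2789 and 2163 summed per component, and 1370 to 5230 and 427 to 4465 with a library left out. ERF1i against GUSi gave 884 and 468 (65.4% higher, 53.5% with no scaling), but 340 and 150 with no filter, 23 and 11 with 4 libraries, 21 and 16 with limma on log2(FPKM + 1), 2 and 7 with log2(FPKM + 0.1), 473 and 274 per component, and 36 to 1741 and 18 to 1164 with a library left out. ERF2i against ERF1i gave 3536 and 3001 (54.1%), but 5313 lower with no scaling (31.9%), 1886 lower with no filter, 1821 and 1726 higher with limma on log2(FPKM + 1) and log2(FPKM + 0.1), and 811 to 3550 and 213 to 3291 with a library left out. The cause of these shifts was not tested. With 2 lines per construct, and 2 to 5 counts of the MYC2-like contigs per ERF2i library, depth limits what those contigs show.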
